A study of Mus musculus with 2 samples.

Results

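The ATF and C/EBP families are transcription factors with a basic leucine zipper (bZIP), a domain in which the basic part binds DNA and the zipper pairs the protein with a second bZIP partner. The set described here was the 10 named genes Atf4, Atf5, Atf3, Atf2, Atf7, Creb1, Cebpb, Cebpg, Cebpa and Cebpd, looked up by symbol. Of these, 9 had a row in the deposited table of 14197 genes, and Cebpa was not analysed here. The cells were 4T1, a wild type murine mammary carcinoma line labelled as tumor cells. They were treated with astragalin (AS), a plant flavonoid, or with the vehicle, and 1 RNA-seq library was made for each condition. The labels give neither dose nor time. The study's methods give 24 h for these cells, and 20 μM AS for some experiments without naming this one. With 1 library per condition no difference below has a replicate check, no test of the conditions was made, and every interval covers counting error only. Anything else that differed between both dishes cannot be told apart from AS, and fewer cells carrying a transcript cannot be told apart from less of it per cell.

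Members of these families act as dimers on related DNA elements. Creb1, Atf2 and Atf7 are largely made all the time and are switched on by phosphorylation. Atf4 and Atf5 are held back at translation by short upstream reading frames and are released when the initiation factor eIF2 is phosphorylated in the integrated stress response, and Atf3 is an early stress-induced gene. C/EBPβ and C/EBPδ drive inflammatory and differentiation genes, whereas C/EBPγ lacks a strong activation domain and pairs with ATF4 on amino acid and redox genes. RNA-seq measures the transcripts only, so neither translation nor phosphorylation of these factors was seen here.

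The levels are RPKM, read numbers per kilobase of exon after scaling to library size, which allows levels of different genes to be set side by side. The length is that of all annotated exons of a gene merged. How well it fits the transcripts made was not tested and is not covered by the intervals. The values imply library sizes of 44909683 reads for AS and 50820728 for the vehicle. Whole reads could be recovered for every gene. A change is the log2 of the AS level over the vehicle level, with 0.1 RPKM first added to each, so that changes of weakly expressed genes come out too small. A gene was called higher or lower where this value passed 1, a 2-fold change, or, as a second threshold, a 1.5-fold change. The epithelial markers of the line were high in both libraries, with a summed level of 1855 RPKM with AS and 2365 RPKM with the vehicle over 10 of 10 genes, and Krt18 led them at 707 and 902 RPKM. They did not move alike, since the median log2 fold change of the list was −0.22, Krt19 (−0.73) and Krt14 (−0.96) were lower by more than 1.5-fold, and Cldn4 (0.42) and Esrp1 (0.47), named like both keratins after their values were seen, were on the other side of 0. Of the leukocyte markers 5 of 10 were in the table with a summed 27.3 and 30.9 RPKM, nearly all of it Cd68 at 24.0 and 28.1 RPKM, while the defining marker Ptprc was at 0.116 and 0.114 RPKM. The endothelial and stromal list had 3 of 10 genes in the table, with a summed 5.56 and 5.20 RPKM, most of it Pdgfra at 4.24 and 4.16 RPKM. The part of any of these markers in the results was not tested.

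To show the DNA in front of annotated starts of these genes, promoter windows were read from RefSeq (GRCm38.p6) as the 250 bases before each start. A window was found for 9 of the 10 genes, all but Cebpd, and Atf5 has 2 starts, which gave 10 windows. They were searched on both strands for the full cyclic AMP response element (CRE, TGACGTCA), its core (TGACG, which also lies inside the full element), the composite ATF and C/EBP element (TGATGNAA), a C/EBP site (TTGCNNAA) and an AP-1 site (TGANTCA). Only the windows of Atf3, Atf4 and Cebpb held any of these motifs, and they are shown for that reason, 5′ to 3′ along the strand of the gene with the matches in capitals. They lie at chr1:191183334-191183583 on the minus strand, chr15:80254934-80255183 on the plus strand and chr2:167688665-167688914 on the plus strand. The Atf3 window precedes an internal start, 34.7 kb inside the gene as GENCODE draws it, whereas those of Atf4 and Cebpb end just before the first base of the gene.
Atf3: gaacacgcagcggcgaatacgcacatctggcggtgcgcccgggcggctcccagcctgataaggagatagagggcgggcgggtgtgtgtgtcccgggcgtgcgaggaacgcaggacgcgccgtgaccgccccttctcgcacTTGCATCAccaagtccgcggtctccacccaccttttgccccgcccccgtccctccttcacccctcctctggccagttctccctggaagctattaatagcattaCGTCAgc
Atf4: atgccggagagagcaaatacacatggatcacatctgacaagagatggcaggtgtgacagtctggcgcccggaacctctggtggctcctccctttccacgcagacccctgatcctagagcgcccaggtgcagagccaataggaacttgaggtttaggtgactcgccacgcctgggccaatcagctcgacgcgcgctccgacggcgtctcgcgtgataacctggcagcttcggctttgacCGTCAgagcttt
Cebpb: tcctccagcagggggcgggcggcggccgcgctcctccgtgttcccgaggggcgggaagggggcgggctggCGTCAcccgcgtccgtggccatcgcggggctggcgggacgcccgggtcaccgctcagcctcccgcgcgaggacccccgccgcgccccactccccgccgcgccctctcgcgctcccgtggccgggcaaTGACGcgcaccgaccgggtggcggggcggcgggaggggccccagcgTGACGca

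In the Atf3 window the composite element was matched as TTGCATCA, its reverse complement, from 110 to 103 bases before the start, and 3.45% of all 32851 windows of the genome held such a match. The CRE core lay 7 to 3 bases before the Atf3 start, 12 to 8 bases before the Atf4 start, and at 3 places before the Cebpb start, the nearest again 7 to 3 bases away. The core is common, since 17.8% of all windows held it. The full CRE (1.55% of all windows), the C/EBP site (9.56%) and the AP-1 site (6.75%) were matched in 0 of the member windows. These matches are letters in a window and no measure of binding. The windows of Atf5 and Cebpg, which were higher with AS as described below, held none of the motifs searched.

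Among the 9 measured genes, Atf3, Atf5, Cebpg and Atf4 were higher in the AS library, Cebpb and Atf7 were slightly higher, Creb1 and Atf2 were close to the median gene, and Cebpd was level. Past a log2 fold change of 1, 2 members were higher, Atf3 and Atf5, and 0 were lower, while 0.662% of all genes were higher and 0.31% lower by as much. Past 1.5-fold, 4 members (44.4%) were higher and 0 lower, against 3.56% and 2.01% of all genes. The members were chosen with earlier results of these data known, so these shares are no independent support that the set stands out. The member median was 0.34 and the median over all genes 0.07. A total of 8 members had a positive log2 fold change, in a table where 60.9% of genes did. The counting interval of the reads lay wholly above 1.5-fold for the 4 higher members and wholly above 1 for 0 of them, so depth alone leaves the side of the threshold of 1 undecided for Atf3 and Atf5.

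**Figure D1:**
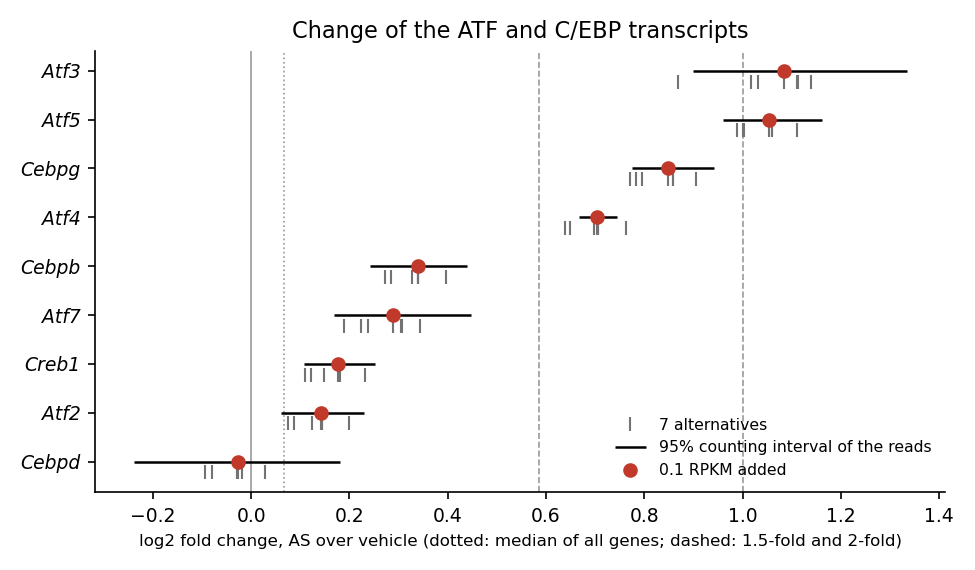
Log2 fold change of AS over vehicle for the 9 measured ATF and C/EBP genes. Red points are the reported values with 0.1 RPKM added, horizontal lines the 95% counting intervals of the reads, and grey ticks the values under 7 alternative settings. The dotted line is the median of all genes and the dashed lines are the thresholds of 1.5-fold and 2-fold. Atf3, Atf5, Cebpg and Atf4 lie past 1.5-fold in every setting, and Cebpd lies around 0.

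Atf4 encodes the central factor of the integrated stress response. The gene (ENSMUSG00000042406.8) occupies positions 80255184 to 80257541 of chromosome 15 in GRCm38, plus strand, with 2358 bases of exon. Its level was 123 RPKM with AS (interval 121 to 125, 13042 reads) and 75.5 RPKM with the vehicle (74.0 to 77.1, 9052 reads). The AS library was higher and the intervals lay far apart. The log2 fold change was 0.70, with a counting interval from 0.67 to 0.74, and 2.254% of all genes changed upward by at least as much. Atf4 was the most abundant member in both libraries, above 97.2% of all genes with AS and 95.1% with the vehicle, and it made up 59.4% and 57.6% of the summed member RPKM.

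Atf5, a close relative of Atf4 that also responds to eIF2 phosphorylation and is tied to mitochondrial stress, showed a larger relative change from a lower level. The gene (ENSMUSG00000038539.15) lies on chromosome 7 from 44812256 to 44816658 on the minus strand. It had 25.7 RPKM with AS (24.6 to 26.8, 2299 reads) and 12.3 RPKM with the vehicle (11.6 to 13.0, 1247 reads). The log2 fold change was 1.05, a 2.08-fold difference, with an interval from 0.96 to 1.16, at place 79 of all genes counted from the largest rise. Within each library the RPKM of Atf5 was 0.209 of that of Atf4 with AS and 0.163 with the vehicle. Measured from the reads, without the added 0.1 RPKM, the change of Atf5 exceeded that of Atf4 by 0.36 on the log2 scale. The counting interval ran from 0.25 to 0.46.

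Atf3 encodes a stress-induced factor that can repress as a homodimer. It had the largest relative change among the members. The gene (ENSMUSG00000026628.13) lies on chromosome 1 from 191170296 to 191218039 on the minus strand. Its level was 5.28 RPKM with AS (4.83 to 5.76, 511 reads) and 2.44 RPKM with the vehicle (2.16 to 2.75, 267 reads). The intervals did not overlap, and the level was above 32.2% of all genes with the vehicle and 50.9% with AS. The log2 fold change of 1.08 (interval 0.90 to 1.33) stood at place 70 of all genes. When measured from the reads, it differed from that of Atf5 by 0.05, with an interval from −0.18 to 0.29 that includes 0.

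The constitutive factors changed little. Creb1, the cyclic AMP-responsive activator (chromosome 1 from 64532645 to 64604548, plus strand), had 4.98 RPKM with AS from 3074 reads and 4.40 RPKM with the vehicle from 3071 reads. Atf2, a target of the stress kinases JNK and p38 (chromosome 2 from 73816509 to 73892639, minus strand), had 6.15 RPKM from 2262 reads and 5.57 RPKM from 2316 reads. Their log2 fold changes were 0.18 (interval 0.11 to 0.25) and 0.14 (0.06 to 0.23), and 32.31% and 37.65% of all genes changed upward by at least as much. The intervals exclude 0, yet both values sit in the bulk of the table. The changes of Creb1 and Atf2, measured from the reads, differed by 0.04 with an interval from −0.07 to 0.15.

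Atf7, the nearest relative of Atf2, was the lowest member by RPKM in both libraries. It had 1.78 RPKM with AS from 877 reads and 1.44 RPKM with the vehicle from 802 reads. By reads alone Atf3 and Cebpd were lower, and the merged exon length of Atf7 was 10988 bases. The gene spans chromosome 15 from 102525946 to 102625464 on the minus strand. The log2 fold change was 0.29, with an interval from 0.17 to 0.45. This value is uncertain, because 1284 bases of its exons, 11.7% of their length, are also exons of Gm28047 on the same strand, whose own log2 fold change was 0.73. The summed level of Atf2, Atf7 and Creb1 was 12.9 RPKM with AS and 11.4 RPKM with the vehicle, whereas Atf4 and Atf5 together had 149 and 87.8 RPKM.

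**Figure D2:**
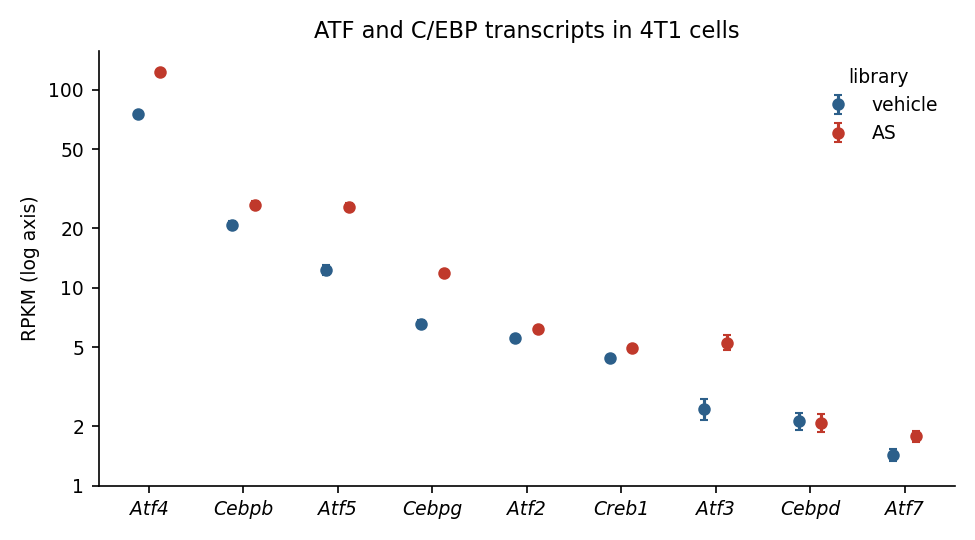
RPKM of the 9 measured ATF and C/EBP genes in the vehicle library (blue) and the AS library (red), on a log axis and ordered by the vehicle level. Error bars are 95% Poisson intervals of the reads and are often smaller than the points. Atf4 is highest and Atf7 lowest in both libraries, and the gaps between the colours are widest for Atf3, Atf5, Cebpg and Atf4.

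Among the C/EBP genes, Cebpg had the largest change. The gene (chromosome 7 from 35046422 to 35056573, minus strand) had 11.9 RPKM with AS (11.5 to 12.3, 3003 reads) and 6.56 RPKM with the vehicle (6.27 to 6.86, 1874 reads). The levels did not overlap. The log2 fold change was 0.85 with an interval from 0.77 to 0.94, and 1.254% of all genes changed upward by at least as much. Measured from the reads, it was above that of Atf4, its dimer partner, by 0.15 (interval 0.06 to 0.25).

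Cebpb encodes C/EBPβ, whose long activating and short inhibitory forms come from 1 transcript and are not separated by gene-level reads. The gene (chromosome 2 from 167688915 to 167690418, plus strand) had 26.2 RPKM with AS from 1769 reads and 20.7 RPKM with the vehicle from 1581 reads. It was slightly higher with AS, with a log2 fold change of 0.34 (interval 0.24 to 0.44), and 13.57% of all genes changed upward by at least as much. Cebpd, an acute-phase member (chromosome 16 from 15887286 to 15891031, plus strand), had 2.08 RPKM with AS from 350 reads and 2.12 RPKM with the vehicle from 404 reads. Its log2 fold change of −0.03 had an interval from −0.24 to 0.18, so a difference was not detectable at this depth and one past 1.5-fold lies outside the interval. The change of Cebpg, measured from the reads, exceeded that of Cebpb by 0.52 (0.39 to 0.65) and that of Cebpd by 0.89 (0.66 to 1.11).

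Exons of Cebpb overlap those of Tmem189 over 312 bases (20.7% of the exon length) and exons of Cebpd those of Spidr over 562 bases (15.0%), each on the opposite strand. The library kit keeps the strand, but the strand setting of the counting is not given in the sources used here, so the share of reads from the partner genes was not tested. Tmem189 had no row in the table, so its level is not known here. The log2 fold change of Spidr was 0.07, from 10.6 RPKM with the vehicle to 11.1 RPKM with AS. Atf5 shares 82 bases of exon with Nup62 and Il4i1 on the other strand, whose log2 fold changes were 0.11 and 0.15. On the same strand, Atf2 shares 167 bases of exon with Gm27421 and Cebpg 73 bases with Gm44836, and neither partner had a row. For Atf4, Atf3 and Creb1 no shared exon with another gene was found.

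The order of the members by RPKM was nearly the same in both libraries. From the top it ran Atf4, Cebpb, Atf5, Cebpg and Atf2 in each, then Creb1, Atf3, Cebpd and Atf7 with the vehicle and Atf3, Creb1, Cebpd and Atf7 with AS. With the vehicle, the intervals of Atf3 and Cebpd overlapped and all other neighbours were apart. With AS, Atf5 (25.7 RPKM) came level with Cebpb (26.2 RPKM), Atf3 with Creb1 (4.98 RPKM), and the intervals of Cebpd and Atf7 overlapped. With the vehicle these pairs had been apart, at 12.3 RPKM for Atf5 and 20.7 RPKM for Cebpb, and at 2.44 RPKM for Atf3 and 4.40 RPKM for Creb1. The 3 C/EBP genes summed to 40.2 RPKM with AS and 29.4 RPKM with the vehicle.

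**Figure D3:**
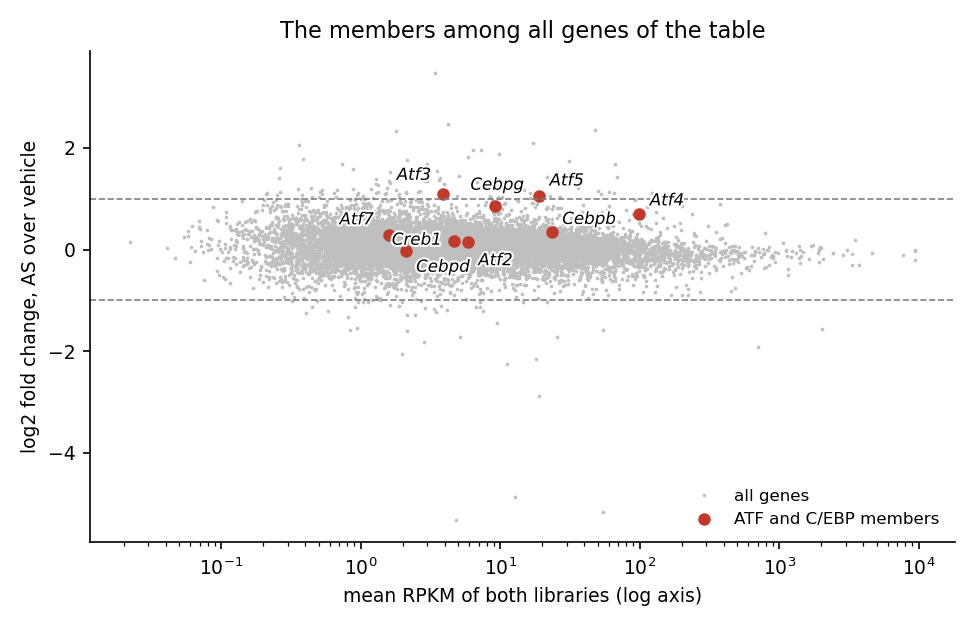
Log2 fold change of AS over vehicle against the mean RPKM of both libraries (log axis) for all 14197 genes (grey), with the 9 measured ATF and C/EBP genes in red. Dashed lines mark 2-fold changes, up and down. Atf4 lies above most genes of its level at 0.70, and Atf3 and Atf5 lie just above the upper line.

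The other bZIP genes place the members within their superfamily. Of 43 others listed, 35 were in the table, and 1 of them, Ddit3, was higher by more than 1 and 0 were lower. Ddit3 encodes CHOP, a C/EBP-like protein that dimerizes with C/EBP proteins and is itself an ATF4 target. At 101 RPKM with AS and 31.5 RPKM with the vehicle, it changed by 1.68 on the log2 scale, more than any member. Its RPKM was 0.417 of that of Atf4 with the vehicle and 0.820 with AS, and its ratio to Cebpb went from 1.52 to 3.85. Measured from the reads, its change exceeded that of Atf4 by 0.97 (0.90 to 1.05), that of Cebpg by 0.82 (0.72 to 0.92) and that of Cebpb by 1.34 (1.22 to 1.45). Over all 44 bZIP genes in the table, 8 were higher by more than 1.5-fold and 0 lower, and 4 of the 8 were members. The other 4 were Ddit3, Nfe2l1 (0.83), Jdp2 (0.78) and Nfil3 (0.65), the last 3 named after their values were seen. The count of 8 depends on the added 0.1 RPKM. Without it Bach2 (0.170 RPKM with AS, 0.0911 RPKM with the vehicle) and Fosb (0.428 and 0.258 RPKM), named likewise, pass 1.5-fold too. The median of the 35 other bZIP genes was 0.13, against 0.34 for the members.

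AP-1 partners of the ATF proteins did not change alike. For Jun, Junb and Jund, which were picked with their values in view, log2 fold changes were −0.17, −0.30 and −0.32, and for Fosl1 and Fosl2, picked likewise, 0.36 and 0.35. Junb (65.3 and 80.6 RPKM) and Jund (94.6 and 118 RPKM) were at levels comparable with Atf4. The Atf4 level was below those of Jund, Nfe2l1 and Junb with the vehicle, and with AS below that of Nfe2l1 (145 RPKM) alone among the bZIP genes. Atf1, the close relative of Creb1, was at 9.87 and 9.03 RPKM, a log2 fold change of 0.13 that is near that of Creb1.

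Regulators upstream of ATF4 and the C/EBP proteins were compared as a list of 27 genes, all in the table. In this list 2 genes were higher by more than 1 and 0 lower, and their median was 0.09. Both encode feedback inhibitors and both are also known ATF4 targets. Trib3, a pseudokinase that binds ATF4 and C/EBP proteins, was at 27.9 RPKM with AS and 6.43 RPKM with the vehicle (log2 fold change 2.10). Ppp1r15a, the phosphatase subunit that reverses eIF2 phosphorylation, was at 20.3 and 9.01 RPKM (1.17). The 4 eIF2 kinases were named after their values were seen. Their transcripts had log2 fold changes of 0.19 for Eif2ak1, 0.12 for Eif2ak3 and −0.03 for Eif2ak4, and Eif2ak2 was at 34.5 RPKM in both libraries. Among 20 kinases and coactivators of CREB1 and ATF2, all in the table, 0 genes passed 1 and Crtc3, a CREB coactivator at 1.45 and 0.837 RPKM, was the 1 gene higher by more than 1.5-fold (0.73). The median of that list was 0.12.

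Known targets of the members differed by list. Of the listed ATF4 targets outside the member set, 47 were in the table. Among these, 18 (38.3%) were higher by more than 1, 38 (80.9%) by more than 1.5-fold and 0 were lower by as much. Their median was 0.88, and the 4 largest values were those of Slc7a11 (3.47), the cystine carrier, Trib3, Gpt2 (1.88) and Asns (1.75), an alanine aminotransferase and the asparagine synthetase. Such targets had been seen to be higher in these libraries when the members were chosen, so this count is no independent support for the member values. Not all of them were higher. Phgdh (0.05), of serine synthesis, Chac1 (0.25), of glutathione breakdown, and Ddit4 (−0.32), an inhibitor of mTOR signalling, stayed under 1.5-fold, and these 3 were chosen after their values were seen.

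Over the genes matched by symbol, the target lists of the other members had lower medians, from −0.17 to 0.23, against 0.07 for all genes. With 0.1 RPKM added, 0 of the 17 CREB1 targets in the table (24 listed) passed 1.5-fold in either direction, and their median was 0.06. The weakly expressed Fosb (0.428 RPKM with AS, 0.258 RPKM with the vehicle), named after its value was seen, came to 0.56. It passes 1.5-fold only without the added amount. The C/EBP list of 30 acute-phase, inflammatory and adipocyte genes had 13 in the table and a median of 0.23. Above 0 were 10 of the 13, in a table where 60.9% of genes were, and 7 were above the median of all genes. In the C/EBP list Lcn2, the siderophore-binding lipocalin, was higher by 0.70 (14.2 and 8.72 RPKM). Nos2, the inducible nitric oxide synthase, was lower by 0.72, at 5.12 RPKM with AS and 8.48 RPKM with the vehicle. The 17 mitochondrial genes linked to ATF5 (18 listed), mostly chaperones and proteases, had a median of −0.0016 and 0 genes past 1.5-fold. Of the genes tied to ATF3, ATF2 or ATF7 (18 listed), 15 were matched by symbol. Among these 15, Gadd45a, a growth arrest gene at 73.2 and 44.3 RPKM, was higher by 0.72. None of the 15 was lower by more than 1.5-fold, and their median was −0.17. The mouse gene Trp53inp1 was not matched to this list, so the count and median leave it out. It went from 0.666 RPKM (vehicle) to 1.90 RPKM (AS), a rise of 1.38 on the log2 scale. It was named after its value was seen.

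**Figure D4:**
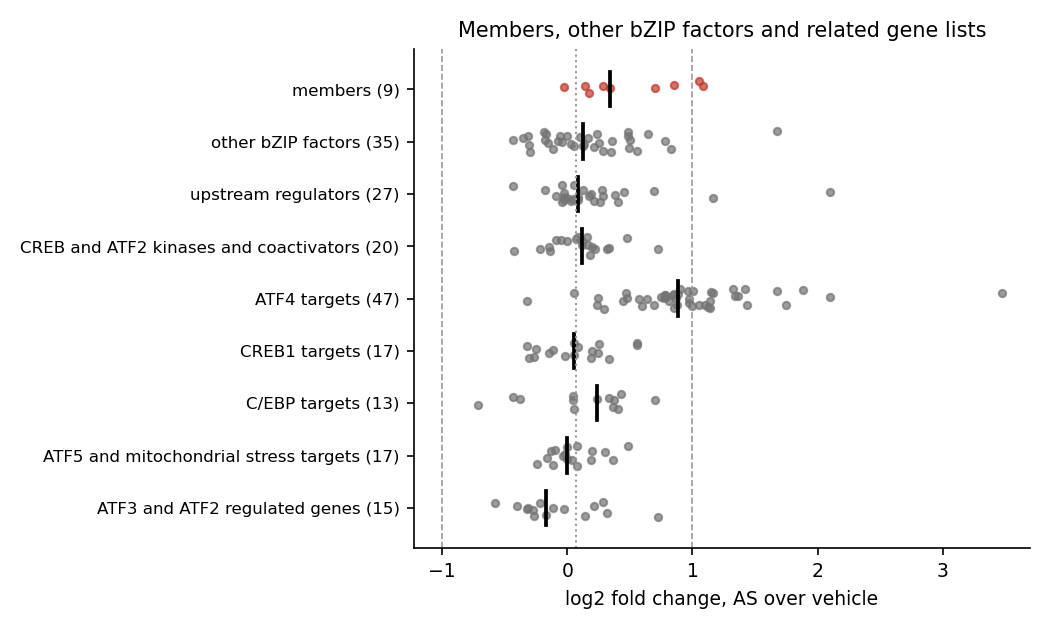
Log2 fold change of AS over vehicle for the members (red) and for the genes of each related list (grey), with the number matched by symbol in brackets. Black bars are list medians, the dotted line the median of all genes at 0.07, and the dashed lines 2-fold changes, up and down. The ATF4 target list has its median at 0.88, whereas the medians of the other target lists lie between −0.17 and 0.23.

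Genes beside the 4 higher members were compared with them, leaving out genes that overlap a member. The nearest such genes with a row on each side of Atf4, Atf5, Atf3 and Cebpg lay from 1.71 kb to 220 kb away. Their log2 fold changes ran from −0.18 for Batf3, left of Atf3, to 0.23 for Vrk3, left of Atf5. None passed 1.5-fold, which few genes did, since 3.56% of all genes were higher and 2.01% lower by as much. Inside the span of Cebpg, however, the antisense entry Gm45095 did, at 0.82 (interval 0.59 to 1.07), and it was named after its value was seen. At the Atf4 locus, Mief1 (0.10) and Rps19bp1 (0.14) lie 1.81 and 3.07 kb away. Cebpg lies 62.7 kb from Cebpa, and Pepd, the nearest measured gene outside its span, 1.71 kb away, had a log2 fold change of −0.04.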

How the data were processed

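One RNA-seq library of AS-treated and one of vehicle-treated 4T1 cells were compared. Per the labels, libraries were made with a stranded mRNA kit. The submitters' processing notes name fastp 0.23.4, STAR 2.5.3a, featureCounts and the build GRCh38, which is human. The exon lengths behind the values of 12715 genes, all measured members among them, matched the mouse GENCODE M21 annotation (GRCm38), from which coordinates were taken. Those of the other 1482 genes, Ddit3 among them, were not matched to it. The deposited table names no unit, and its values were found to be the authors' RPKM. The authors also deposited a mean log2 CPM, used here to find the reads of 1482 genes. Their fold changes, p-values and FDR were not used.

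Whole reads were recovered for 100% of genes (12715 from the annotated exon length, tolerance 0.0001 reads) and summed to 44820055 with AS and 50723555 with the vehicle, 99.8% of each library size. Log2 fold changes used 0.1 RPKM added to both values. Intervals are 95% Clopper-Pearson (changes) or Poisson (levels) intervals. No molecular identifiers are named, so they cover counting error only. Python 3.11.15, numpy 2.4.6, pandas 2.3.3 and scipy 1.17.1 were used, and the steps were tested on simulated data. From each related list, genes past 2-fold were named, up to the 4 largest in each direction, or otherwise the largest rise and fall past 1.5-fold. From marker lists the highest gene was named. Members and lists were chosen with earlier results of these data known. Gene lists were compared by counts and medians without a test. Alternatives were other added amounts, a filter on low values, 3 other scalings, the recovered reads and a 1.5-fold threshold.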

Additional observations from a re-analysis of the deposited data

How the results depend on the processing

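No member was lower past the threshold under any of the alternatives, and the member median ranged from 0.27 to 0.40. The number of members higher by more than 1 was 2 as reported, 1 with 1 RPKM added (Atf3 then at 0.87), 1 when values were centred on the median gene (Atf5 then at 0.99) and 4 at the 1.5-fold threshold. Over all genes, 94 were higher and 44 lower as reported. With 1 RPKM added there were 38 higher and 16 lower, with 0.01 RPKM added 153 higher and 62 lower, from the recovered reads with 0.5 added 160 higher and 65 lower, and at 1.5-fold there were 505 higher and 286 lower. Centring on the median gene gave 75 higher and 57 lower, and scaling to the same total RPKM 115 higher and 34 lower. The changes with other added amounts follow from their construction, since a larger added amount shrinks the ratios of low genes. A lower threshold counts more genes by construction, and the scalings move all genes the same way. Under the 6 alternatives that can move a member's own value, 49 of 54 values stayed within the counting interval and 5 did not: 3 of Atf4 (0.64, 0.65 and 0.76, under the scalings), and 1 each of Atf3 (0.87) and Cebpg (0.77), with 1 RPKM added. Cebpg ranged from 0.77 to 0.91, and Cebpd from −0.09 to 0.03. No paired analysis was possible because each condition has 1 library. No replicate could be left out for the same reason. Depth limits Atf3, Atf7 and Cebpd most, with at most 877 reads in a library, and the spread between dishes is unknown.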

Other observations

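The annotated genes Gm45095 and Gm28047 overlap members and had changes close to or above those of the members they overlap, and both were chosen after their values were seen. Gm45095, annotated as antisense at positions 35056027 to 35056379 of chromosome 7, plus strand, has its 254 bases of exon wholly inside the span of Cebpg, and 4 of these bases are also Cebpg exon. It was at 32.7 RPKM with AS from 373 reads and 18.4 RPKM with the vehicle from 238 reads, a log2 fold change of 0.82 with a counting interval from 0.59 to 1.07, beside 0.85 for Cebpg. Whether these reads come from the antisense strand or from Cebpg was not tested. Gm28047, a protein-coding entry at positions 102523843 to 102625067 of chromosome 15, minus strand, shares 1284 of its 1611 bases of exon (79.7%) with Atf7. It was at 4.88 RPKM from 353 reads and 2.89 RPKM from 237 reads, a log2 fold change of 0.73 (0.51 to 0.997), beside 0.29 for Atf7. How the reads of the shared exons were assigned is not given in the sources used here.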
